A study of Arabidopsis thaliana with 6 samples.

Results

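The major latex protein-like (MLP) genes of *Arabidopsis thaliana* were chosen by locus. The list holds 10 genes, namely MLP423 (AT1G24020), MLP28 (AT1G70830), MLP31 (AT1G70840), MLP34 (AT1G70850), MLP43 (AT1G70890), MLP165 (AT1G35260), MLP168 (AT1G35310), MLP328 (AT2G01520), MLP329 (AT2G01530) and AT4G23670. A gene entered the measurements where the array has a probe set (the set of short probes read together as one transcript) that is named for it alone. This held for 2 of the 10 genes, MLP423 and AT4G23670. There were 13767 such genes in all, counting those named only through a table of the study. The other 8 genes have no probe set named for them alone in the sources used and are not analysed here. The probe annotation used does not list 8730 of the 22746 probe sets, so the array may still carry probe sets for these genes. MLP423 is named only through a table in which the study lists probe sets for their change between these same arrays. Its values are therefore given as a description without a test, and the comparison of the genotypes had been seen when the whole list was drawn up.

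Seedlings were measured, with no separation of organs described. For each of Col-0, the wild type, and *rcb-10* there were 3 biological replicates, grown and sampled separately. The *rcb-10* line, in the Col-0 background, has a T-DNA inserted in an intron of RCB. RCB (REGULATOR OF CHLOROPLAST BIOGENESIS) acts in phytochrome signalling, and the protein does not accumulate in *rcb-10*. All seeds had 4 days of cold stratification in darkness, and the seedlings were then kept for 4 days in red (R) light of 10 μmol m-2 s-1. The 6 ATH1 arrays give linear signals in arbitrary units, and 43.8, the highest signal of the array's trp controls, was taken as background. RCB has no named probe set and could not be used to check the genotype of an array.

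MLPs are small cytosolic proteins that were first found in the latex of the opium poppy. They belong to the Bet v 1 family, named for the major birch pollen allergen, whose members fold around a large hydrophobic cavity that can hold lipids and other small ligands. The PYR/PYL receptors of abscisic acid (ABA), a hormone of drought and seed dormancy, share this fold. MLP genes are known from plant defence, stress responses and growth, and many of them lie side by side in the genome as tandem copies. In the TAIR10.1 annotation MLP28, MLP31, MLP34, AT1G70860, AT1G70870, AT1G70880 and MLP43 follow each other with 0 protein-coding genes between neighbours. The same holds for MLP328 and MLP329, and for AT4G23670 and AT4G23680.

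MLP423 was around background in *rcb-10*, with a mean signal under it. Its signal was 623.6, 573.7 and 406.8 in Col-0 replicates 1, 2 and 3, and 35.8, 8.11 and 73.3 in *rcb-10* replicates 1, 2 and 3. All 3 Col-0 arrays were above background, as was 1 of the 3 *rcb-10* arrays. The genotypes did not overlap, which was also true of 40.6% of all probe sets. Col-0 had a mean of 535 ± 114 and *rcb-10* one of 39.1 ± 32.7 (SD, n = 3 arrays each). The log2 change (*rcb-10* minus Col-0) was −4.25, with a standard error of 0.81 and a 95% interval of −6.25 to −2.24. The interval takes no account of the naming of the gene through this same contrast and is not a test. With signals under background raised to it, the log2 change was −3.34. A lower log2 change was found for 4 of the 22746 probe sets, and for 4 again with low signals raised in all of them, in the same contrast through which the gene was named. The size of the change rests in part on *rcb-10* replicate 2, where the gene was dimmest, since the log2 change was −3.36 without it and −4.95 without *rcb-10* replicate 3.

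AT4G23670 had bright signals in both genotypes. They were 9329, 12056 and 10303 in Col-0 replicates 1, 2 and 3, and 6761, 7168 and 7738 in *rcb-10* replicates 1, 2 and 3. Every *rcb-10* array was dimmer than every Col-0 array, which was also true in one direction or the other for 40.6% of all probe sets. Col-0 had a mean of 10563 ± 1382 and *rcb-10* one of 7222 ± 491 (SD, n = 3 arrays each). The log2 change of −0.54 (standard error 0.14, 95% interval −0.89 to −0.19) missed the threshold in limma with Benjamini-Hochberg adjustment over all probe sets (adjusted p = 0.0534). A lower log2 change was found for 20.2% of the probe sets.

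**Figure D1:**
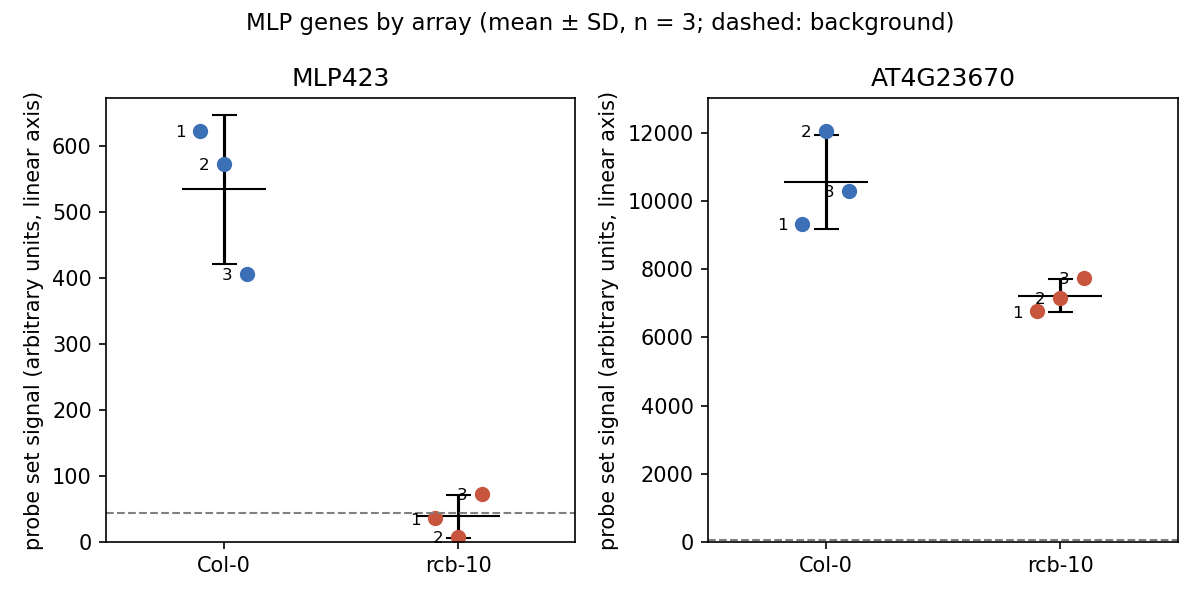
Signal of MLP423 (left) and AT4G23670 (right) on each array, in arbitrary units on a linear axis. Numbered points are replicates, bars are the mean ± SD of 3 arrays, and the dashed line is background at 43.8. MLP423 lies between 406.8 and 623.6 in Col-0 and at most at 73.3 in *rcb-10*, and the AT4G23670 arrays of the genotypes are separate but closer in proportion.

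Since MLP423 was not tested, AT4G23670 was the 1 listed gene open to a call at an adjusted p under 0.05, and it was not called. Of all probe sets 16.9% were called, 10.2% lower and 6.76% higher. Nothing is read from this count, as the genes had been listed with this comparison known. AT4G23670 was called with quantile normalization (log2 change −0.75, adjusted p = 0.0223), with array weights, with a variance trend, with low signals raised to background and without dim probe sets. It was not called with each array centred on its median (log2 change −0.37, adjusted p = 0.120), a scaling under which the median over all probe sets is 0.13 in place of −0.04, a shift of 0.17. Both log2 changes were negative in every alternative tried.

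**Figure D2:**
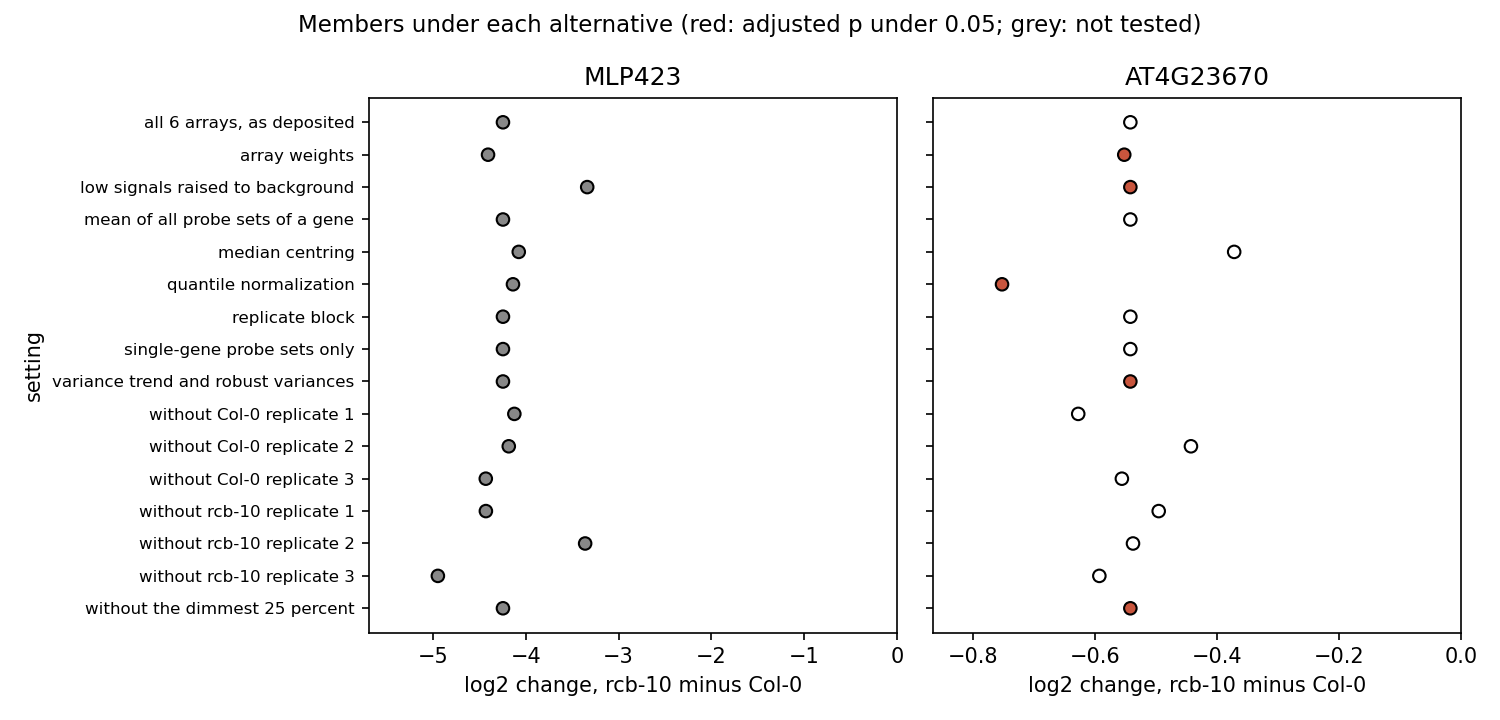
Log2 change (*rcb-10* minus Col-0) of MLP423 (left) and AT4G23670 (right) for each alternative, with 1 row per setting. Red points have an adjusted p under 0.05 in limma, open points do not, and grey points (MLP423) were not tested. MLP423 ranges from −4.95 to −3.34 and AT4G23670 from −0.75 to −0.37, and all points are below 0.

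A second list held 18 further genes of the family, chosen from knowledge of MLP-like and Bet v 1-like genes. The tables used here give these loci no family name. A probe set named for the gene alone exists for 16. Of these 16 genes, 3 were higher in *rcb-10*, 1 was lower and 12 did not pass an adjusted p of 0.05, beside 6.76% of all probe sets higher and 10.2% lower. At a fold of at least 2 as well, the threshold of the study's methods, 3 were higher and none lower. The shares of all probe sets were 2.8% and 4.41%. Of these 3 genes, AT1G14930 was under background on every array and AT1G14950 on every Col-0 array. With low signals raised to background their log2 changes were 0 and 0.78, and that of AT1G23120 was 1.22. At an unadjusted p under 0.05, 7 of the 16 passed, as did 33.3% of all probe sets. The median log2 change of the 16 genes was 0.07, beside −0.04 over all probe sets. On every array 7 of the 16 were above background, 5 were above it on some arrays and 4 on none.

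AT1G23120 rose in *rcb-10*. Its signal was 345.0, 367.0 and 373.4 in the 3 Col-0 arrays and 798.4, 938.2 and 804.8 in the 3 *rcb-10* arrays, so that the lowest *rcb-10* value was above the highest of Col-0. The log2 change was 1.22 (standard error 0.12, 95% interval 0.93 to 1.52, adjusted p = 0.00622 in limma). It was called whichever of the 6 arrays was left out (adjusted p up to 0.0316).

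AT1G23130, the next gene along the chromosome with 0 protein-coding genes between, had a log2 change of the opposite sign that did not pass. Its signal was 2044, 1999 and 874.6 in Col-0 replicates 1, 2 and 3, and 1310, 539.3 and 513.0 in *rcb-10* replicates 1, 2 and 3. Col-0 replicate 3 lay below *rcb-10* replicate 1, and the genotypes overlapped. The log2 change was −1.10 with a standard error of 0.51 and an interval of −2.37 to 0.17 (adjusted p = 0.200 in limma). The difference between the changes of these neighbours was not tested.

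AT3G26450 fell in *rcb-10*. Its signal was 2627, 3036 and 3188 in the Col-0 arrays and 1501, 1845 and 1824 in the *rcb-10* arrays, with no overlap. The log2 change was −0.78 (standard error 0.15, 95% interval −1.14 to −0.42, adjusted p = 0.0229 in limma). The call held only without Col-0 replicate 1 when arrays were left out (adjusted p = 0.0494), and the highest adjusted p was 0.0716, without Col-0 replicate 2. Its neighbour AT3G26460 was close to background, with means of 65.4 ± 25.4 in Col-0 and 67.4 ± 30.1 in *rcb-10* (SD, n = 3 each).

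AT4G23680, which lies next to AT4G23670, had signals of 3478, 3733 and 2245 in the Col-0 arrays and of 1975, 1723 and 1983 in the *rcb-10* arrays. Here too each *rcb-10* array was below each Col-0 array. The log2 change of −0.70 (standard error 0.22, 95% interval −1.26 to −0.15) did not pass (adjusted p = 0.0869 in limma), although it did without Col-0 replicate 3 (log2 change −0.93, adjusted p = 0.0340). Of the 18 family genes measured, the 4 whose Col-0 mean was over 1000 were AT4G23670, AT4G23680, AT3G26450 and AT1G23130. All 4 had a negative log2 change in every alternative, and 1 of them, AT3G26450, was called. This level was set after the values were seen, and 55.4% of the 3563 probe sets over it had a negative log2 change.

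**Figure D3:**
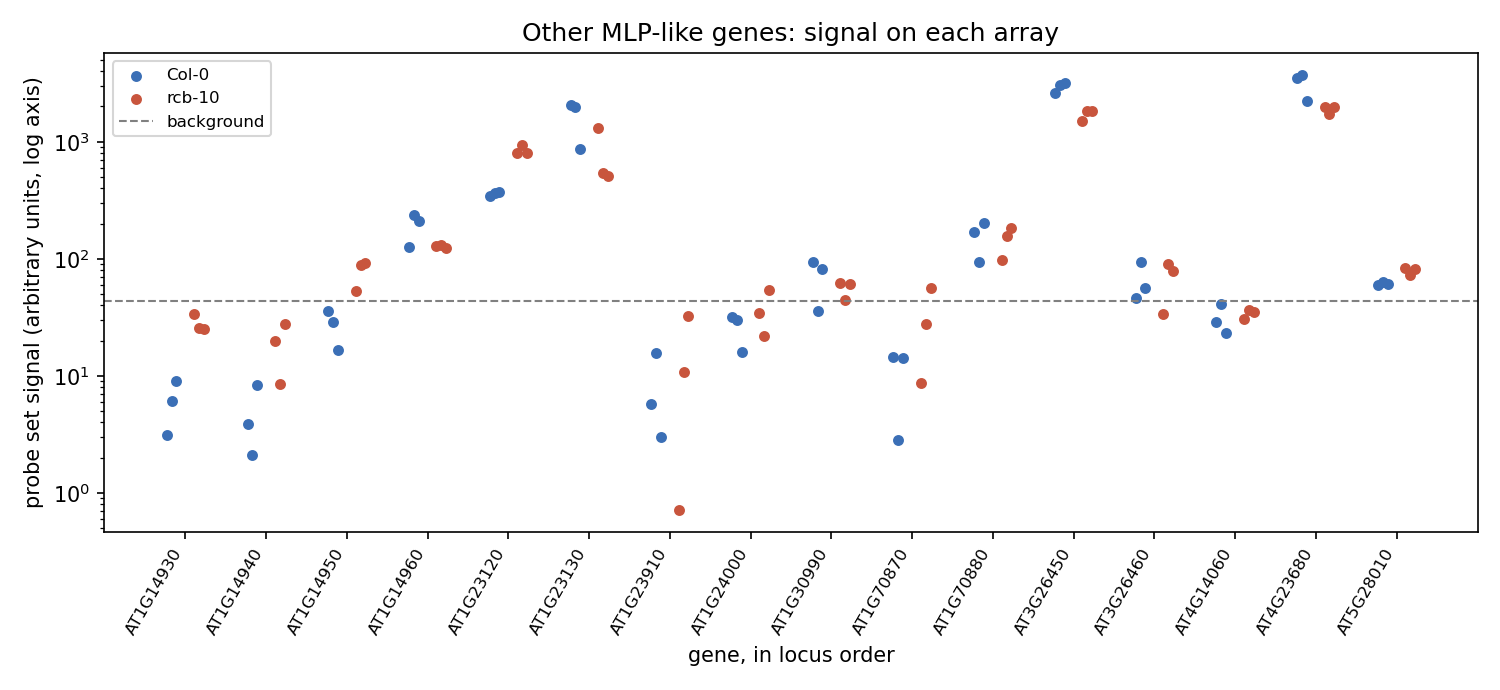
Signal of the 16 other MLP-like genes on each array, in arbitrary units on a log axis, in locus order (blue, Col-0, red, *rcb-10*, 3 arrays each, dashed line, background at 43.8). AT1G23120 is higher on all *rcb-10* arrays, AT3G26450 and AT4G23680 are lower on all of them, and 4 genes lie below the line on every array.

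The neighbouring genes AT1G14930, AT1G14940, AT1G14950 and AT1G14960 were dim. AT1G14930 was called higher (adjusted p = 0.0197 in limma), but its 6 signals, with means of 6.07 ± 2.96 in Col-0 and 28.3 ± 5.01 in *rcb-10* (SD, n = 3 each), were all under background, so that no fold is given. AT1G14940, also under background on all arrays, did not pass (adjusted p = 0.0870). AT1G14950 rose from 35.7, 28.6 and 16.6 in Col-0, all under background, to 53.0, 87.9 and 91.3 in *rcb-10*, all above it (adjusted p = 0.0406 in limma). With the Col-0 arrays taken at background, the rise was 1.72-fold, an estimate that leaves out the spread between arrays. That change did not pass (adjusted p = 0.0898 in limma).

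AT1G14960, the only 1 of these 4 genes above background on every array, had signals of 126.6, 234.4 and 208.7 in Col-0 and of 128.3, 130.0 and 122.9 in *rcb-10*. Its log2 change of −0.53 (95% interval −1.15 to 0.09) did not pass (adjusted p = 0.205). The calls of AT1G14930 and AT1G14950 were lost with low signals raised to background. When single arrays were left out, AT1G14930 was called in 2 of 6 fits, which left out replicate 1 or 3 of Col-0, and AT1G14950 in none (adjusted p up to 0.115).

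AT1G24000, which lies 1 protein-coding gene away from MLP423, was above background on 1 of 6 arrays. Its mean signal was 25.8 ± 8.57 in Col-0 and 36.9 ± 16.3 in *rcb-10* (SD, n = 3 each). Within the cluster of MLP28 to MLP43, AT1G70880 had a mean of 155 ± 55.5 in Col-0 and 145 ± 43.0 in *rcb-10* (SD, n = 3 each), with a log2 change of −0.06 and a 95% interval of −0.99 to 0.86. AT1G70870 was above background on 1 array, and its log2 change did not pass (adjusted p = 0.319). AT5G28010 was at 59.7, 63.5 and 61.1 in Col-0 and at 82.8, 73.3 and 82.1 in *rcb-10*. Its log2 change of 0.37 (95% interval 0.09 to 0.64) did not pass (adjusted p = 0.0763), and the genotypes did not overlap. AT1G30990 had a log2 change of −0.24 (adjusted p = 0.727), and AT1G23910 and AT4G14060 were under background on all arrays.

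**Figure D4:**
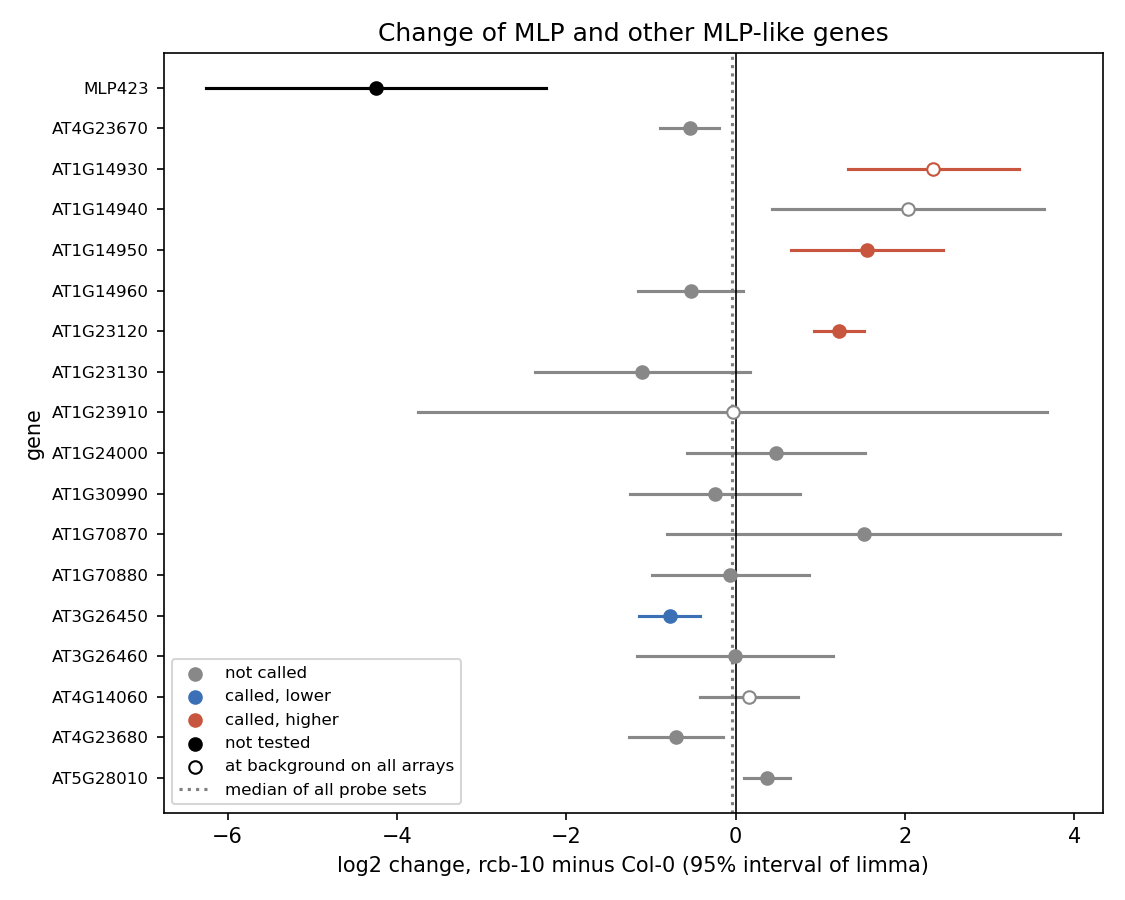
Log2 change (*rcb-10* minus Col-0) of the 18 measured family genes, with MLP423 and AT4G23670 at the top and the others in locus order. Bars are 95% intervals of limma, blue and red mark calls at an adjusted p under 0.05, black marks MLP423, which was not tested, open points are genes at background on all arrays, and the dotted line is the median of all probe sets at −0.04. MLP423 is at −4.25, and the genes above background on every array run from −1.10 to 1.22. The interval of MLP423 takes no account of its naming through this same contrast.

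The 2 measured MLP genes were compared array by array. The log2 signals of MLP423 and AT4G23670 had a Pearson correlation of 0.86 over the 6 arrays, which form 2 genotypes, and of 0.17 for the deviations from the genotype means. Among 10859 other probe sets of single genes above background on at least 3 arrays, the 3 most like MLP423 over the 6 arrays were AT2G40460, AT-HF and AT5G61310, with correlations of 0.999, 0.999 and 0.998. Their log2 changes were −1.15, −0.44 and −0.48. All 3 had their lowest signal on *rcb-10* replicate 2, as MLP423 did, which follows largely from choosing them by this likeness. MLP423 was under background on *rcb-10* replicates 1 and 2, at 35.8 and 8.11, so the correlations rest in part on such signals. A correlation over 0.95 was found for 136 of the 10859, and with 6 arrays such values are a description only.

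Genes of ABA signalling were set beside the family because of the shared fold of the receptors. None of the 14 listed PYR/PYL receptors has a probe set named by the probe table, nor does any of 12 listed phosphatases and kinases. PYL5, a receptor named only through the study's table of changed probe sets, had signals of 777.2, 706.1 and 652.8 in Col-0 and of 1772, 1399 and 1382 in *rcb-10*, a log2 change of 1.09. RD26, a NAC transcription factor gene of the ABA response named in the same way, had a log2 change of 1.01. Of 4 measured ABA- and dehydration-responsive genes among 12 listed, none passed in limma and 1, COR47, named after its values were seen, did at an unadjusted p under 0.05 (33.3% of all probe sets did). COR47, a dehydrin gene, had a log2 change of 0.56 (adjusted p = 0.110). LTI30 had one of 0.49 and AT3G02480 one of −0.22, both with overlapping arrays (adjusted p = 0.273 and 0.879 in limma). COR15A, a cold-regulated gene, was under background on all Col-0 arrays and on all but 1 *rcb-10* array and did not pass (adjusted p = 0.434), so that no size is given.

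Few markers of the organs could be read, and without separated organs fewer cells of a type and less RNA per cell cannot be told apart. Of 15 listed root genes 1 is named by the probe table, EXPA7, an expansin gene of root hairs. It fell from a mean of 180 ± 39.7 in Col-0 to 86.0 ± 15.3 in *rcb-10* (SD, n = 3 each, log2 change −1.06, adjusted p = 0.0328 in limma). RHS13, a root hair gene named through the study's table, had a log2 change of −1.01 with overlapping arrays. RCA, the Rubisco activase gene of green tissue and the 1 measured of 15 listed leaf genes, had a log2 change of 0.05. The study describes *rcb-10* seedlings in R light as tall and albino, and RCA alone does not measure green tissue. The seed oil body gene OLEO3, 1 measured of 13 listed, had a log2 change of −0.10. The ratio of 3′ to 5′ signal of the ubiquitin control was 2.34 to 2.70 in Col-0 and 2.97 to 2.99 in *rcb-10*. That of actin was higher in both genotypes, at 9.07 to 14.1 in Col-0 and 10.8 to 12.6 in *rcb-10*. For GAPDH it was 2.30 to 3.21 in Col-0 and 2.56 to 2.85 in *rcb-10*, and for both actin and GAPDH the genotypes overlapped. The part of root content or of RNA quality in the changes of the MLP genes was not tested.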

How the data were processed

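Each genotype was hybridised to 3 ATH1 arrays. The intensity values deposited by the authors are linear, and every array has a mean of 500.0 once 2% of its probe sets are left out at each end. The methods name GeneSpring GX and RMA, but RMA values lie on a log scale, and how the linear values arose is not given in the sources at hand. Intensities were taken to log2 and fitted with limma 3.58.1 in R 4.3.3 over the 22746 probe sets other than controls, with no filter, and p-values were adjusted over all of them by the Benjamini-Hochberg procedure. Python 3.11.15, pandas 2.3.3 and matplotlib 3.10.9 served for tables and plots.

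Probe sets were named through the probe table and TAIR10.1, which give 1 gene to 13513 and several genes to 503 of them. The other 8730 are not listed there. A table of the study that lists probe sets for their change named 481 more, among them those of MLP423, PYL5, RD26 and RHS13. For this reason MLP423, PYL5, RD26 and RHS13 were not tested. The genes and gene lists were chosen with earlier results of these data known. All family genes with a named probe set are described. For the ABA lists, the rule was to name the called gene with the largest rise and fall, or else the gene with the largest change. All 4 measured ABA- and dehydration-responsive genes are given beside it. Where all arrays of a group were at or under background, the fold was computed with that group raised to background. With 3 arrays against 3, an exact permutation test cannot give a p below 0.1, and the number of arrays limits the precision. In data simulated from these arrays, limma recovered 48 of 100 probe sets changed 3-fold and 62 of 100 changed 6-fold. Only these probe sets were changed there, while 16.9% of the 22746 probe sets were called in the data. The adjustment was thus stricter in the simulation, and the shares recovered do not carry over to the data. Alternatives were other scalings, a filter, raised low signals, other variance models, weights for arrays, a block for the replicate number, left-out arrays and other probe set and call rules. Protein and promoter sequences were not analysed here.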

Additional observations from a re-analysis of the deposited data

How the results depend on the processing

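The 0 calls among the listed MLP genes, of which only AT4G23670 was tested, became 1 with array weights (log2 change −0.55, adjusted p = 0.0467), with quantile normalization (−0.75, 0.0223), and at an unmoved −0.54 with low signals raised to background (0.0373), with robust variances and a trend (0.00460) and without the dimmest 25% of probe sets (0.0218). With an array left out there were 0 calls (1 at an unadjusted p under 0.05), and its log2 change ran from −0.63 to −0.44 (adjusted p 0.0732 to 0.141). The log2 change of MLP423, not tested, ran from −4.95 to −3.36 with an array left out.

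The 4 calls among 16 other family genes became 1 at an adjusted p under 0.01 and 1 to 4 with an array left out. The 0 calls among ABA genes became 1 with a variance trend and 1 without dim probe sets, with 0 in every fit that left out an array. The 3853 probe sets called on the whole array, 2315 lower and 1538 higher, became 2378 when only single-gene probe sets or genes were tested, 5951 with a variance trend, 1642 at a fold of at least 2, 635 at an adjusted p under 0.01, and 1256 to 2224 with an array left out. With median centring 1493 were lower and 2553 higher. The fits with 2378 calls took in 481 probe sets named only through the study's table of changes between these same arrays. Their share of calls is thus not set beside that of all probe sets.

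The replicate numbers showed no pairing of the arrays across all probe sets, where the deviations of same-numbered arrays correlated at 0.03, −0.02 and 0.02. Not every array correlated best with its own number, and pairing in a part of the genes was not tested. With the replicate number as a block, limma called 0 probe sets at an adjusted p under 0.05, of 6823 at an unadjusted p under 0.05. The block leaves fewer residual degrees of freedom, and lost power was not told apart from a lost difference. AT4G23670 stayed at a log2 change of −0.54 (adjusted p = 0.115 in limma with the block), and 0 other family genes were called (7 unadjusted). The log2 change of MLP423 was −4.25 with the block. The ABA genes gave 0 calls with and without the block, with 1 at an unadjusted p under 0.05 in both.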
